A study of Arabidopsis thaliana with 12 samples.

Results

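The 7 calmodulin-binding transcription regulators described here were taken by gene identifier from a table of 33610 Arabidopsis thaliana genes: the CBP60 family members CBP60G (AT5G26920), SARD1 (AT1G73805), CBP60B (AT5G57580) and CBP60A (AT5G62570), and the CAMTA family members CAMTA1 (AT5G09410), CAMTA2 (AT5G64220) and CAMTA3 (AT2G22300). All 7 passed the filter on low counts, as did 17588 genes in total. Whole rosettes of 21-day-old wild-type Col-0 plants were profiled by RNA-seq after growth in FlowPots, a peat-based gnotobiotic system. Holoxenic (HO) plants received a live microbial community washed from soil, either 'Malaka' (also labelled Laurel, taken here as the same input) or 'MSU'. Axenic (AX) plants received the matching slurry after autoclaving. The 4 groups, HO-Malaka, AX-Malaka, HO-MSU and AX-MSU, had 3 libraries each, and 1 library was a pool of 8 rosettes from 4 FlowPots that shared a microbox. All groups carried the same genotype, grew in peat and received soil slurry, and each soil had its own AX controls. The p-values below therefore measure the spread between such pools, and whole-rosette RNA does not tell fewer cells of a type from less RNA per cell.

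Calmodulin is a calcium sensor, and the CBP60 and CAMTA proteins are transcription factors that link calcium signals to gene expression. CBP60G and SARD1 act in parallel as activators of salicylic acid synthesis: both bind the promoter of ICS1, which encodes the isochorismate synthase of that pathway, and promoters of many other defence genes. CBP60G binds calmodulin, whereas SARD1 is a family member that does not. CBP60B is also a positive regulator of immunity, whereas CBP60A acts as a negative regulator. CAMTA1, CAMTA2 and CAMTA3 recognize DNA with a CGCG core and together hold down SARD1, CBP60G and salicylic acid synthesis in unchallenged leaves, and they promote part of the response to cold.

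SARD1 and CBP60G are genes that CAMTA3 is known to repress, and WRKY factors, the defence regulators that bind the W-box core TTGAC, are known at defence promoters, so the stretches upstream of these 2 genes that hold such letters are shown. They were read from the TAIR10.1 assembly, with CGCG and TTGAC in capitals (TTGAC on the other strand reads GTCAA), and positions are counted back from the annotated gene start. SARD1 lies on chromosome 1 (27744790 to 27749248, minus strand, 7 exons). The 250 bases before its start, chr1:27749249-27749498 on the minus strand, hold CGCG at position -167 and TTGAC at -242, -213, -208 and -18.
SARD1: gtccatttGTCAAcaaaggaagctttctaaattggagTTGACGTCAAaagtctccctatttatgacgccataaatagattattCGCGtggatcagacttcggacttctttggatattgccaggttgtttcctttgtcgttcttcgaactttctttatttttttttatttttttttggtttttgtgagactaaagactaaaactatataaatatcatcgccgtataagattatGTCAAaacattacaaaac
CBP60G lies on chromosome 5 (9475679 to 9478777, plus strand). Its proximal 250 bases hold neither motif, and in 1000 bases all of its matches fall in a stretch of 110 bases, chr5:9474689-9474798 on the plus strand, with CGCG at -975 and TTGAC at -937, -921, -905 and -893.
CBP60G: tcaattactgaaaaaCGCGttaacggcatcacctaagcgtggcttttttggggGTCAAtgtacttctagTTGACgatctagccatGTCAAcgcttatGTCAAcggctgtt
No other annotated gene overlaps either stretch. Both strands were searched in 27443 promoters of protein-coding genes. In windows of 250 bases CGCG occurred in 10.1% and TTGAC in 44.9% of them, and in windows of 1000 bases in 32.2% and 88.1%. The longer form ACGCGT, which contains CGCG, occurred in 5.23% of the windows of 1000 bases. It was present in the CBP60G stretch and at -997 before the repressor gene CBP60A, and not in the SARD1 window. Among the other members, the 1000 bases before CBP60B, CBP60A and CAMTA2 held CGCG and those before CAMTA1 and CAMTA3 did not. Another annotated gene overlaps the 250 bases before CBP60B (AT5G57590) and those before CAMTA1 (AT5G09400). TTGAC had 2 sites before CBP60A, 2 before CAMTA1 and 4 before CAMTA2, and none before CBP60B or CAMTA3. Of these 5 genes, 4 lie on chromosome 5, CBP60B at 23314672 to 23318177 (minus strand), CBP60A at 25113948 to 25117314, CAMTA1 at 2920827 to 2927480 and CAMTA2 at 25686193 to 25692339 (plus strand), and CAMTA3 lies on chromosome 2 at 9471219 to 9476646 (plus strand). The motif matches describe letters only, and nothing here measured binding.

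Libraries held 10211008 to 22710086 counts, of which 65.3% to 74.8% fell on ribosomal RNA or organelle genes, with 65.3% to 69.0% in AX and 66.4% to 74.8% in HO libraries. HO-Malaka replicate 2 had the highest such share and the lowest composition factor (0.788), so results are also given without it where it matters. Markers matched the label of rosette tissue: RBCS1A, the Rubisco small subunit, stood at 2724 to 3789 CPM, the root hair gene RHD6 had 0 counts, the root genes EXPA7, COBL9, CASP1 and WER had 0 to 5 counts over the 6 libraries of a treatment, and SAG12, a marker of senescing leaves, had 0. SHR, listed as a root marker, had 47 to 103 counts per library and was not called (log2FC -0.25). Among flower markers AP3 had 1 count in all, AG had 0 counts in the 6 AX and 17 in the 6 HO libraries (3 to 6 counts in 4 of them), PI had 0 to 14 counts per library, and SEP3 had 0 to 6 apart from 21 in AX-Malaka replicate 1. One of 5 leaf markers was lower in HO plants, LHCB2.1, a light-harvesting protein (log2FC -0.24, edgeR adjusted p = 0.0308), and the part of these markers in the results was not tested. Levels are given as CPM, a count relative to the library total after scaling by the composition factor, and changes as log2FC of HO over AX from edgeR, with p-values adjusted over all 17588 genes.

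The levels of the 7 genes spanned a wide range. Per kilobase of exon, which allows genes to be compared, CBP60B was highest in AX plants at 6.92 ± 0.21 CPM per kb (SD, n = 6 libraries). CAMTA1 followed at 5.49 ± 0.57 and CAMTA3 at 5.35 ± 0.54 CPM per kb, with overlapping ranges. CBP60A at 4.44 ± 0.33 and CAMTA2 at 4.20 ± 0.42 CPM per kb did not differ from each other beyond their spread. The activators were the lowest, CBP60G at 1.09 ± 0.23 and SARD1 at 0.129 ± 0.10 CPM per kb. The order in HO plants was the same, with CBP60G at 2.49 ± 0.80 and SARD1 at 0.392 ± 0.31 CPM per kb, both still below every other member. CBP60B at 7.21 ± 0.51 and CAMTA1 at 6.54 ± 0.88 CPM per kb overlapped in HO plants, whereas they had been separate in AX plants.

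**Figure D1:**
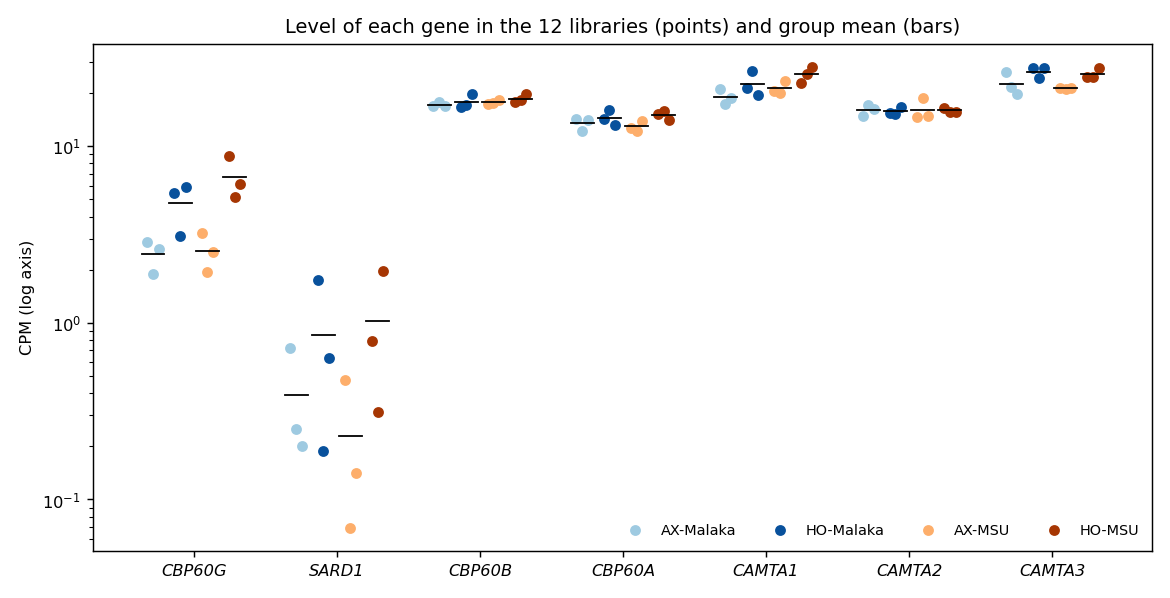
Level of each of the 7 genes in CPM (log axis) in the 12 libraries, with 3 points per group and a bar at the group mean. CBP60G moves from 1.89 to 3.22 CPM in AX libraries to 3.10 to 8.80 CPM in HO libraries, SARD1 scatters between 0.0691 and 1.96 CPM, and the other 5 genes stay between 12.1 and 28.1 CPM.

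The first comparison asked whether the members differed between HO and AX plants within the Malaka input. CBP60G rose 2.01-fold in HO-Malaka plants, and it was the only one of the 7 members to pass the test. CBP60G stood at 2.88, 1.89 and 2.63 CPM in AX-Malaka replicates 1 to 3 and at 5.41, 3.10 and 5.86 CPM in HO-Malaka replicates 1 to 3. Every HO-Malaka library was above every AX-Malaka library, although HO-Malaka replicate 2 exceeded the highest AX-Malaka library only slightly. The log2FC was 1.00 (SE 0.27, edgeR adjusted p = 0.0272, 95% interval 0.45 to 1.56). One of 7 members was thus higher, against 2.49% of all genes tested, and 0 members were lower, against 1.89%. CBP60G also met the fold threshold of the study (log2FC of at least 1), which 1.25% of all genes met in this direction, and it was the only member with no overlap between the groups, a state that 10.1% of all genes reached. The call was narrow: it was lost with DESeq2 (adjusted p = 0.0519), with plain total counts (0.0823) and without AX-Malaka replicate 2 (log2FC 0.81, 0.182), AX-Malaka replicate 3 (1.05, 0.0642), HO-Malaka replicate 1 (0.91, 0.0853) or HO-Malaka replicate 3 (0.85, 0.151). Without HO-Malaka replicate 2 the log2FC was 1.21 (adjusted p = 0.00331).

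Within the MSU input the same gene stood out. CBP60G rose 2.58-fold in HO-MSU plants. It stood at 3.22, 1.93 and 2.54 CPM in AX-MSU replicates 1 to 3 and at 8.80, 5.17 and 6.11 CPM in HO-MSU replicates 1 to 3. The lowest HO-MSU library was well above the highest AX-MSU library. The log2FC was 1.36 (SE 0.25, edgeR adjusted p = 5.07e-04, 95% interval 0.85 to 1.87), and the call held with DESeq2 and with each library left out. Again 1 of 7 members was higher, against 3.30% of all genes, 0 were lower, against 3.28%, and CBP60G met the fold threshold, as 1.42% of genes did in this direction. With MSU, 3 members, CBP60G, CBP60A and CAMTA3, had every HO library above every AX library, which held for 12.4% of all genes.

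SARD1, the second activator, was measured on few reads. AX-Malaka replicates 1 to 3 had 9, 4 and 2 SARD1 counts (0.719, 0.252 and 0.202 CPM) and HO-Malaka replicates 1 to 3 had 30, 2 and 9 (1.74, 0.188 and 0.635 CPM). AX-MSU replicates 1 to 3 had 8, 1 and 2 counts (0.477, 0.0691 and 0.141 CPM) and HO-MSU replicates 1 to 3 had 13, 7 and 26 (0.794, 0.312 and 1.96 CPM). The groups overlapped in both soils, and HO-Malaka replicate 2 was below all 3 AX-Malaka libraries. Over both soils 26 SARD1 counts were found in 6 AX libraries and 87 in 6 HO libraries. The log2FC was 1.20 with Malaka (SE 0.73, edgeR adjusted p = 0.438), 1.97 with MSU (SE 0.75, adjusted p = 0.126) and 1.58 over both soils (SE 0.53, adjusted p = 0.0545, 95% interval 0.50 to 2.65). SARD1 therefore did not pass the test, and the interval spans folds of 1.41 to 6.29. Its Malaka value moved with single libraries, falling to 0.14 without HO-Malaka replicate 1 and rising to 1.94 without AX-Malaka replicate 1. Its MSU value was 1.14 without HO-MSU replicate 3 and 3.10 without AX-MSU replicate 1. Over both soils it passed in 7 of 21 alternative fits, among them those without AX-Malaka replicate 1 (1.96, adjusted p = 0.0351) or HO-Malaka replicate 2 (1.79, adjusted p = 0.0233). Of the 2397 exonic bases of SARD1, 441 lie opposite the gene GIP2 on the other strand. The strand setting of the counting was not given in the sources used here. GIP2 itself had 0 to 8 counts per library, against 1 to 30 for SARD1, and its part in the SARD1 counts was not tested.

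CBP60B, the positive regulator with the highest level per kilobase, showed no call in either soil. It ranged from 16.9 to 18.3 CPM in the 6 AX libraries and from 16.7 to 19.8 CPM in the 6 HO libraries, so the groups overlapped throughout. Its log2FC over both soils was 0.06 (SE 0.07, edgeR adjusted p = 0.731), and the 95% interval, -0.10 to 0.21, leaves out folds above 1.16. The sign of this value turned negative (-0.05) with plain total counts.

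The 4 repressors had log2FC values of at most 0.25 over both soils, and 1 of them passed the test. CAMTA3 stood at 26.2, 21.6 and 19.7 CPM in AX-Malaka replicates 1 to 3 and at 27.6, 24.3 and 27.7 CPM in HO-Malaka replicates 1 to 3. It stood at 21.5, 21.2 and 21.4 CPM in AX-MSU replicates 1 to 3 and at 24.6, 24.6 and 27.7 CPM in HO-MSU replicates 1 to 3. AX-Malaka replicate 1 was the single AX library above any HO library. Over both soils CAMTA3 rose 1.19-fold in HO plants (log2FC 0.25, SE 0.08, edgeR adjusted p = 0.0335), with 0.24 for Malaka (adjusted p = 0.257) and 0.26 for MSU (adjusted p = 0.162). CAMTA1 had a log2FC of the same size, 0.25 (SE 0.08), over ranges of 17.3 to 23.5 CPM in AX and 19.6 to 28.1 CPM in HO libraries, and did not pass (adjusted p = 0.0597). CBP60A, at 12.1 to 14.4 CPM in AX and 13.2 to 16.1 CPM in HO libraries, had a log2FC of 0.16 (SE 0.09, adjusted p = 0.270). CAMTA2, at 14.7 to 18.7 CPM in AX and 15.3 to 16.7 CPM in HO libraries, had a log2FC of -0.02 (SE 0.08, adjusted p = 0.944, 95% interval -0.18 to 0.15). The CAMTA3 call held in 11 of 21 alternative fits and its value was 0.14 (adjusted p = 0.562) with plain total counts, a scaling that moved the median of all genes to -0.10. Relative to that median the CAMTA3 value was 0.24. Reads of the opposite strand could touch 69 of 4103 exonic bases of CAMTA3 and 231 of 2983 of CBP60A, which another gene overlaps.

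**Figure D2:**
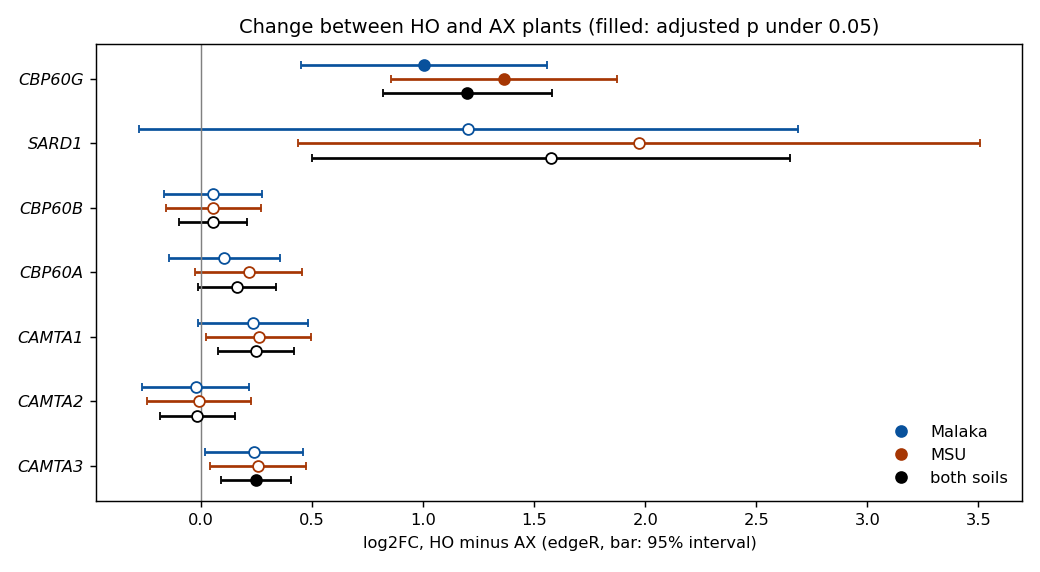
log2FC of HO over AX plants for the 7 genes with Malaka (blue), with MSU (brown) and over both soils (black), with 95% intervals from edgeR and filled points for adjusted p under 0.05. CBP60G is filled in all 3 comparisons (1.00, 1.36 and 1.20), CAMTA3 over both soils only (0.25), and the SARD1 intervals are the widest.

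Over both soils, with soil as a term in the fit, 2 of 7 members were higher in HO plants, against 5.01% of all genes tested, and 0 were lower, against 5.16%. They were the activator CBP60G (log2FC 1.20, SE 0.19, edgeR adjusted p = 4.38e-05, fold 2.30, 95% interval of the fold 1.76 to 2.99) and the repressor CAMTA3. DESeq2 also called 2 members, and of 20936 genes it called 881 higher and 868 lower. CBP60G alone met the fold threshold, as 1.56% of genes did in this direction. No member had all 6 HO libraries above all 6 AX libraries, against 2.51% of genes: for CBP60G, HO-Malaka replicate 2 (3.10 CPM) fell below AX-MSU replicate 1 (3.22 CPM). The median log2FC of the 7 members was 0.25 and that of all genes tested 0.005.

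**Figure D3:**
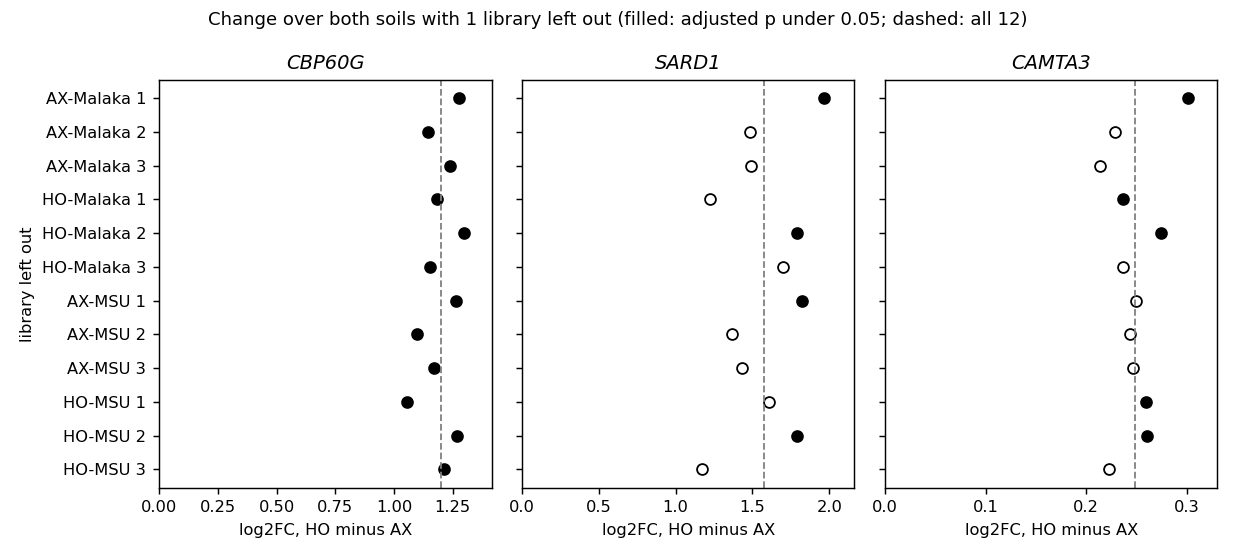
log2FC over both soils after leaving out each library in turn, for CBP60G, SARD1 and CAMTA3, with filled points for adjusted p under 0.05 and a dashed line at the value from all 12 libraries. CBP60G stays between 1.06 and 1.30 and is filled throughout, SARD1 moves between 1.17 and 1.96 and CAMTA3 between 0.21 and 0.30, each with filled and open points.

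Set against the repressors within a library, CBP60G made up a larger share in HO than in AX plants with MSU, whereas SARD1 overlapped in both soils. For every 100 reads on CBP60A, CAMTA1, CAMTA2 and CAMTA3 together, the AX-MSU libraries held 2.68 to 4.62 and the HO-MSU libraries 6.32 to 11.1 CBP60G reads, with no overlap. With Malaka the AX libraries held 2.77 to 3.81 and the HO libraries 3.77 to 7.59, and the lowest HO library fell just inside the AX range. For SARD1 the AX libraries held 0.0958 to 0.938 and the HO libraries 0.229 to 2.29 reads per 100 repressor reads, and the ranges overlapped. The mean log2 level of both activators minus that of the 4 repressors rose from AX to HO by 0.65 with Malaka and 1.26 with MSU, given as a description with no test because the genes were chosen. The groups overlapped in both soils: HO-Malaka replicate 2 (-4.30) was below all 3 AX-Malaka libraries (-4.25 to -3.54), and HO-MSU replicate 2 (-3.70) was below AX-MSU replicate 1 (-3.58). The Malaka value was 0.27 without HO-Malaka replicate 1 and 1.14 without HO-Malaka replicate 2.

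**Figure D4:**
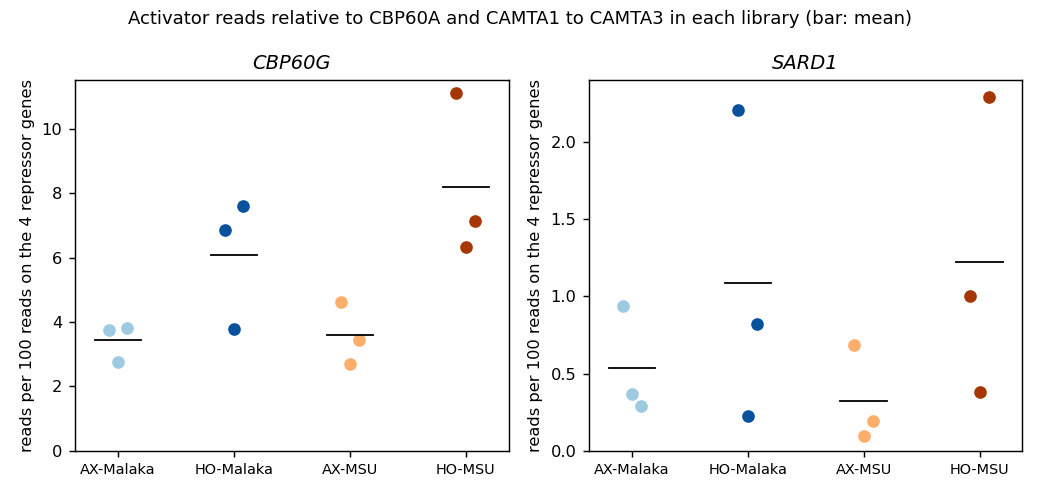
Reads on CBP60G (left) and SARD1 (right) per 100 reads on the 4 repressor genes in each library, with a bar at the group mean. The HO-MSU points for CBP60G, 6.32 to 11.1, lie above all AX points, and the SARD1 points of HO and AX libraries overlap in both soils.

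No difference between the soils was detected for any member. The change with MSU exceeded that with Malaka by 0.36 for CBP60G (SE 0.37, edgeR adjusted p = 0.857, 95% interval -0.40 to 1.12) and by 0.02 for CAMTA3 (SE 0.15, adjusted p = 0.987). In this interaction 0 of 7 members passed, against 0.279% of all genes. Between the soils, 0 of 7 passed in AX plants, against 0.648%, and 0 of 7 in HO plants, against 0.290%. In these 3 comparisons 0 members had an unadjusted p under 0.05 and DESeq2 called 0. The largest soil value for CBP60G was in HO plants, 0.45 higher with MSU (SE 0.23, adjusted p = 0.578).

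The members also differed in how much replicates of 1 group scattered. The biological coefficient of variation estimated by edgeR was 0.461 for SARD1 and 0.176 for CBP60G, and 0.0756 to 0.0908 for the other 5 genes. Pearson's r of the log2 CPM of CBP60G and SARD1 was 0.73 over the 12 libraries and 0.65 after the group means were removed. The value was higher between SARD1 and the repressor CAMTA3, 0.80 and 0.72. The genes with the pattern most like CBP60G over the 12 libraries, of all genes tested, were AT1G52200 (r = 0.960), FH4 (AT1G24150, a formin, r = 0.958) and AT4G08850 (r = 0.953). Those most like SARD1 were AT2G25510 (r = 0.938), AT5G22120 (r = 0.909) and CNGC10 (AT1G01340, a cyclic nucleotide-gated channel, r = 0.907). These values are descriptions over libraries that differed in sequencing depth and composition, and the part of either in them was not tested.

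Of 22 genes reported as targets of CBP60G and SARD1, 18 could be tested, and over both soils 4 were higher in HO plants and 0 lower, against 5.01% and 5.16% of all genes tested. AGP5, an arabinogalactan protein, rose most, from 0.101 to 0.358 CPM in AX to 0.401 to 1.55 CPM in HO libraries (log2FC 2.23, SE 0.42, edgeR adjusted p = 5.77e-04). Its HO libraries were all above its AX libraries, which held for 2.51% of all genes. BKK1, a co-receptor of pattern receptors, rose from 11.8 to 17.5 CPM to 21.3 to 29.9 CPM (log2FC 0.67, SE 0.10, adjusted p = 2.10e-05). ADR1-L1, a helper immune receptor, rose from a mean of 19.4 CPM in AX to 21.4 to 33.4 CPM in HO libraries (log2FC 0.54, SE 0.09, adjusted p = 6.31e-05). BAK1, the relative of BKK1 with the same role, had a log2FC of 0.32 (adjusted p = 0.0449), and the call held in 8 of 21 alternative fits. Of the genes of salicylic acid synthesis itself, none of the 3 tested passed: ICS1 was at 6.27 to 7.86 CPM in AX and 5.84 to 10.9 CPM in HO libraries (log2FC 0.08, adjusted p = 0.771, 95% interval -0.19 to 0.35), and EDS5, which exports the precursor from the chloroplast, had a log2FC of 0.60 (adjusted p = 0.205). EPS1, which acts late in that synthesis, had a log2FC of -0.50 (adjusted p = 0.319), and of -0.91 with MSU (adjusted p = 0.201). With MSU it was at 0.916 to 1.38 CPM in AX and 0.603 to 0.672 CPM in HO libraries. The 4 targets left untested for low counts were PBS3, ALD1, FMO1 and UGT76B1, of which FMO1 had 0 counts in the 6 AX and 12 in the 6 HO libraries and UGT76B1 had 3 and 30. The median log2FC of the 18 targets was 0.21.

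Within the soils 2 of 18 targets were higher with Malaka, against 2.49% of all genes, AGP5 (log2FC 2.75, edgeR adjusted p = 0.00677) and ADR1-L1 (0.40, adjusted p = 0.0436), and 2 of 18 with MSU, against 3.30%, BKK1 (0.94, adjusted p = 1.95e-06) and ADR1-L1 (0.67, adjusted p = 1.93e-04). AGP5 had a log2FC of 1.77 with MSU (adjusted p = 0.0666) and BKK1 one of 0.39 with Malaka (adjusted p = 0.0595), and in both genes every HO library was above every AX library in each soil. That state was reached by 10.1% of all genes with Malaka and 12.4% with MSU. The test of the difference between the soils did not pass for AGP5 (adjusted p = 0.839) or BKK1 (adjusted p = 0.204). The ADR1-L1 call with Malaka was lost in 12 of 21 alternative fits. Of the rest of the CBP60 family, 1 of 4 genes, CBP60C, was higher over both soils (log2FC 0.29, SE 0.07, adjusted p = 0.0107), and it lost the call with plain total counts (0.17, adjusted p = 0.412). None of CAMTA4, CAMTA5 and CAMTA6 passed, with log2FC values of 0.26, 0.22 and 0.07. Of 6 cold and stress genes under CAMTA control, only ZAT10, a zinc finger repressor, had enough counts to test, and it rose from 0.345 to 1.68 CPM in AX to 1.65 to 5.06 CPM in HO libraries (log2FC 1.68, SE 0.26, adjusted p = 5.11e-05). Its call with MSU (1.33, adjusted p = 0.0321) was lost in 6 of 21 alternative fits, among them plain total counts (adjusted p = 0.0819) and those without AX-MSU replicate 2 (log2FC 0.99, adjusted p = 0.197), AX-MSU replicate 3 (adjusted p = 0.153), HO-MSU replicate 2 (0.102) or HO-MSU replicate 3 (0.100), and without AX-MSU replicate 1 the value was 2.22. Of the regulators of the members, 0 of 4 tested passed (TGA1, TGA4, TCP8 and CDK8, log2FC 0.02 to 0.29). Among 7 calmodulin genes, CAM7 was lower in HO plants (log2FC -0.38, SE 0.12, adjusted p = 0.0351) and the other 6 did not pass. CAM7 had 16.4 CPM in AX-MSU replicate 2 against 8.71 to 12.8 CPM in the other AX libraries, and without that library its log2FC was -0.24 (adjusted p = 0.171). The CAM7 call held in 11 of 21 alternative fits and was also lost with DESeq2 (adjusted p = 0.057) and without several other single libraries.

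**Figure D5:**
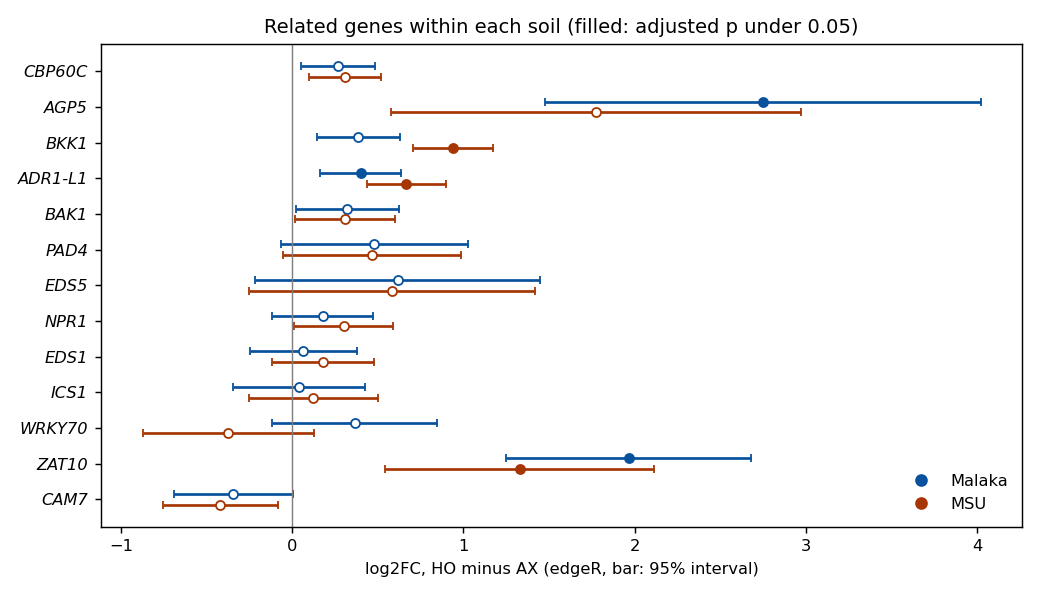
log2FC of HO over AX plants within Malaka (blue) and MSU (brown) for 13 related genes, with 95% intervals from edgeR and filled points for adjusted p under 0.05. The genes are a selection from the lists, and targets not shown include EPS1 (-0.91 with MSU). Of 18 targets tested, 14 had a positive log2FC with Malaka and 14 with MSU. ZAT10 and ADR1-L1 are filled in both soils, AGP5 is filled with Malaka and open with MSU (1.77), BKK1 is filled with MSU and open with Malaka (0.39), and ICS1 lies at 0.04 and 0.12.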

How the data were processed

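RNA-seq libraries from 12 pools of rosettes, 3 in each of 4 groups, were used. The values are raw read counts per gene, deposited by the authors in 1 table. According to the submitters' processing notes, reads were trimmed with Trimmomatic 0.39, aligned to TAIR10 with STAR and counted with featureCounts. The annotation, the strand setting and the treatment of reads with several matches were not given in the sources used here. The read libraries came from a kit that keeps strand.

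Counts were fitted with edgeR 4.0.16 in R 4.3.3 (filterByExpr with a minimum count of 10 and a minimum total of 15, TMM factors, quasi-likelihood F tests), with Benjamini-Hochberg adjustment over all 17588 genes tested and a call at 0.05. Within-soil contrasts, the interaction and the soil contrasts used 4 group means and all 12 libraries. The joint contrast had soil as a term. The study identified DEGs with DESeq2 and used edgeR for normalization and clustering, so the tests here depart from its method, and DESeq2 1.42.0 was run as an alternative, under which the CBP60G call with Malaka is lost. Other alternatives were RLE factors, plain total counts, no filter, a filter of 0.5 CPM in 1 library, the replicate number as a block, each soil alone, no soil term, a fold threshold in the model, each library left out, and, chosen after seeing the data, leaving out ribosomal RNA and organelle genes. The fitting code was checked on simulated data, with large changes set in genes with a higher mean count than SARD1. That check did not cover counts as low as those of SARD1 or changes as small as that of CAMTA3. Correlations used log2 CPM with a prior count of 2. Total counts, 10211008 to 22710086 per library, bear most on SARD1, since 3 counts equal 0.134 to 0.303 CPM.

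The members and the gene lists were chosen with earlier results of these data known. Named are the 7 members, list genes with an adjusted p under 0.05 in the joint or a within-soil comparison, and the 3 genes most correlated with CBP60G and with SARD1. ICS1, EDS5, EPS1, the other CAMTA genes, the regulators TGA1, TGA4, TCP8 and CDK8, the untested targets, the tissue markers and GIP2 were named outside that rule after their values were seen. One gene listed as a regulator, AT5G67480, was left out because the reference names it BT4, a different gene from the one intended. Exon lengths, positions and promoters were read from RefSeq TAIR10.1, a build whose chromosomes carry the TAIR10 sequence. Figures were drawn with matplotlib 3.10.9.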

Additional observations from a re-analysis of the deposited data

Results flagged for a closer look

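Among 14 sets of 6 libraries, the AX and the HO libraries of each member, 1 library stood apart from its set. CAMTA3 had 26.2 CPM in AX-Malaka replicate 1, and the other 5 AX libraries had 19.7 to 21.6 CPM. The gap to the nearest library was 0.682 of the whole range, above the critical value of 0.625, and chance flags about 1 in 20 sets. Without this library 4 of 7 members passed over both soils in place of 2, with CAMTA3 at a log2FC of 0.30. In that fit 794 of all 18040 genes tested were higher and 719 lower, against 881 and 908 of 17588 with all libraries.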

How the results depend on the processing

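With plain total counts the number of members passing was 0 for Malaka and 1 over both soils, with DESeq2 it was 0 for Malaka, and with no filter on low counts it was 2 for MSU. Over all genes, DESeq2 called 353 of 20391 higher and 259 lower for Malaka. The fit with no filter called 671 of 28649 higher and 660 lower for MSU. With a fold threshold tested in the model, 0 members passed in all 3 comparisons of HO with AX plants, since no log2FC of a member was shown to exceed 1. Of all 17588 genes, 114 were higher and 5 lower over both soils in that fit. With 1 library left out, the number of members passing was 0 to 1 for Malaka, 1 for MSU and 1 to 4 over both soils. These fits tested 17764 to 18090 genes. Of them 267 to 523 were higher and 212 to 418 lower for Malaka. For MSU these were 372 to 682 and 272 to 752, and over both soils 720 to 987 and 682 to 1099. The interaction and the soil comparisons called 0 members in every fit. The activator minus repressor difference was 0.27 to 1.14 for Malaka and 1.00 to 1.61 for MSU with 1 library left out. SARD1 passed over both soils with no filter (adjusted p = 0.00598) and without ribosomal RNA and organelle genes (adjusted p = 0.048), and with MSU with no filter (adjusted p = 0.0333). Plain total counts moved the median log2FC of all genes to -0.16 for MSU and turned CBP60B to -0.11 there. With that scaling 242 genes were higher and 592 lower for MSU, against 580 and 577, 235 and 141 for Malaka, against 438 and 333, and 424 and 935 over both soils, against 881 and 908. The cause of these differences was not tested.

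The labels do not say whether the replicate numbers pair the samples. Within a soil, deviations of same-numbered HO and AX libraries correlated at -0.03 to 0.09. Of 12 libraries, 5 correlated best with their own number. This check did not cover batches shared across soils. Adding the replicate number as a block gave 656 genes higher and 705 lower for MSU, against 580 and 577. Over both soils it gave 922 and 989, against 881 and 908. With the replicate block, 2 members passed for MSU, since SARD1 had a log2FC of 2.14 (adjusted p = 0.0352), and SARD1 also passed over both soils (1.53, adjusted p = 0.0266). The block left the calls of the other members as they were. SARD1 was measured on 1 to 30 counts per library. AGP5, with a larger log2FC over both soils (2.23 against 1.58 for SARD1), was called on 1 to 22 counts. The part of depth in the SARD1 result was not tested.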
